A study of Homo sapiens with 6 samples.

Results

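The IL-6 and IL-12 families are related groups of secreted cytokines, and 10 of their genes were followed here in PC3 cells after silencing of Mic60. They comprise 7 genes for cytokine subunits (IL23A, IL12A, EBI3, IL6, IL11, LIF and CLCF1) and 3 genes for receptor chains (IL6ST, LIFR and OSMR). The 10 were picked by name from 57736 Ensembl genes in the deposited table, and the picking was done with the results of the contrast between siMic60 and siCTRL cells already known. The values of these 10 genes are therefore given as a description, without a p-value, and the counts of members that passed the test support nothing on their own.

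Gene expression was measured in PC3, a line of human prostate cancer cells that was derived from a metastasis to bone, with 3 libraries from cells given a control siRNA (siCTRL) and 3 from cells given an siRNA against Mic60 (siMic60). Mic60, encoded by IMMT, is a structural protein of the inner mitochondrial membrane. The labels also call these groups Mic60 WT and Mic60 KO, while the sample names are those of siRNAs. A single name is given for the siRNA of each group, and the labels do not state dose, time or whether replicates were separate cultures, so the spread between libraries may be technical. The supplement of the study's paper states for its data in general that there were at least 3 independent biological replicates, without naming these libraries. The comparison asks how these cytokine and receptor genes differ between cells with and without Mic60 silencing.

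Most cytokine subunits of these families, though not EBI3 or IL12B, share a 4-helix fold. The cytokines signal through receptor chains that carry JAK kinases, which phosphorylate STAT transcription factors. IL-6, IL-11, LIF and CLCF1 act through IL6ST (gp130), the common signalling chain, which pairs with itself, with LIFR or with OSMR depending on the ligand. The IL-12 family is built from paired subunits. IL23A (p19) joins IL12B (p40) to form IL-23, IL12A (p35) joins the same p40 to form IL-12, and EBI3 joins IL27 or IL12A. IL-6 and LIF are classical products of stressed and inflamed tissue, and many tumour cells secrete them.

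IL23A and IL6 moved furthest and in opposite directions, so the sequence ahead of their start sites is shown here. Each line holds the 250 bases upstream of the RefSeq start (GRCh38.p14, plus strand), IL23A at chr12:56338634-56338883 and IL6 at chr7:22726950-22727199, in lower case, with matches to the motifs searched in capitals.
IL23A: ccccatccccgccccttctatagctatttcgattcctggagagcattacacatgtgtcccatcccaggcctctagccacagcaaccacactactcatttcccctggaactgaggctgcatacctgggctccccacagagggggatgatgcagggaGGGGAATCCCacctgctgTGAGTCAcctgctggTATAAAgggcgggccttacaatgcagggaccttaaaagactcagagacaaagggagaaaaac
IL6: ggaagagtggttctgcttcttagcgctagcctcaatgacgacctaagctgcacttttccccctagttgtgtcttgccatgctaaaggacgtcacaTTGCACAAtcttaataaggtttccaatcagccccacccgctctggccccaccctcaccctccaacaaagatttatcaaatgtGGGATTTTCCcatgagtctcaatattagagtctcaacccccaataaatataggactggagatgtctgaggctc
Both windows held a match to the NF-kB motif, which 5.21% of 35116 windows of the same length in the table also held. In IL23A the match was followed by an AP-1 motif (TGANTCA, 6.57% of windows) and a TATAAA (10.7%), and in IL6 it was preceded by a C/EBP motif (TTGCNNAA, 9.05%). No interferon-stimulated response element (ISRE, 3.02%) or full cyclic AMP response element (TGACGTCA, 1.65%) was found in either window. All motifs were searched on both strands, and a match is a string of letters, not a bound site.

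Total counts were 7714837 to 8396244 in the siCTRL and 6644495 to 8779877 in the siMic60 libraries. IMMT was at 88.9, 91.2 and 90.4 CPM (counts scaled to a common library size, after TMM normalization for library composition) in siCTRL and at 5.83, 7.34 and 8.53 CPM in siMic60 libraries, so that 8.12% of the control level was left. Libraries of a group were not equally close. The siCTRL replicate 1 library was the farthest from its group mean for 47.0% of the genes tested, against 25.3% and 27.7% for the other siCTRL libraries, and where a call on a named gene was lost without it, this is said beside the result. As known for this line, KLK3, a gene of the androgen response, had no count, and the keratin gene KRT19 was at a mean of 1158 CPM in siCTRL cells. Of 20 leukocyte markers, 12 had no count in any library, CD3E, MS4A1, CD163 and ITGAX among them. The whole list summed to 6.17 to 9.41 CPM in siCTRL and 3.64 to 6.26 CPM in siMic60 libraries (scaled by library totals). Without KLRD1, the highest of them, it summed to 2.02 to 2.98 and 0.911 to 3.31 CPM. By group (siCTRL, then siMic60), PTPRC had 23 and 7 counts, ITGAM 16 and 1, CD79A 2 and 11, and LYZ 8 and 13. Of 12 fibroblast and endothelial markers, 11 were matched, and DCN, VWF and CDH5 had no count. The summed level of this list was 293 to 379 CPM in siCTRL and 50.7 to 70.6 CPM in siMic60 libraries, nearly all of it COL1A1, without which it was 6.09 to 11.7 and 4.67 to 7.92 CPM.

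Of the 10 members, 8 passed the filter on low counts, at least 10 counts in at least 3 libraries, and IL12A and EBI3 did not. With edgeR's quasi-likelihood test across 14653 genes, 7 of the 8 were called at an adjusted p under 0.05, where 35.5% of all genes tested were called. IL6, LIF, CLCF1 and OSMR were called higher (17.7% of all genes) and IL23A, IL6ST and LIFR lower (17.9% of all genes). The siMic60 and siCTRL libraries did not overlap for 6 of the 8, where 47.9% of all genes tested did not overlap. Nothing is read from these shares, since the members were chosen on this contrast. The median log2 fold change was 0.42 over the 8 members and 0.0022 over all genes tested.

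**Figure D1:**
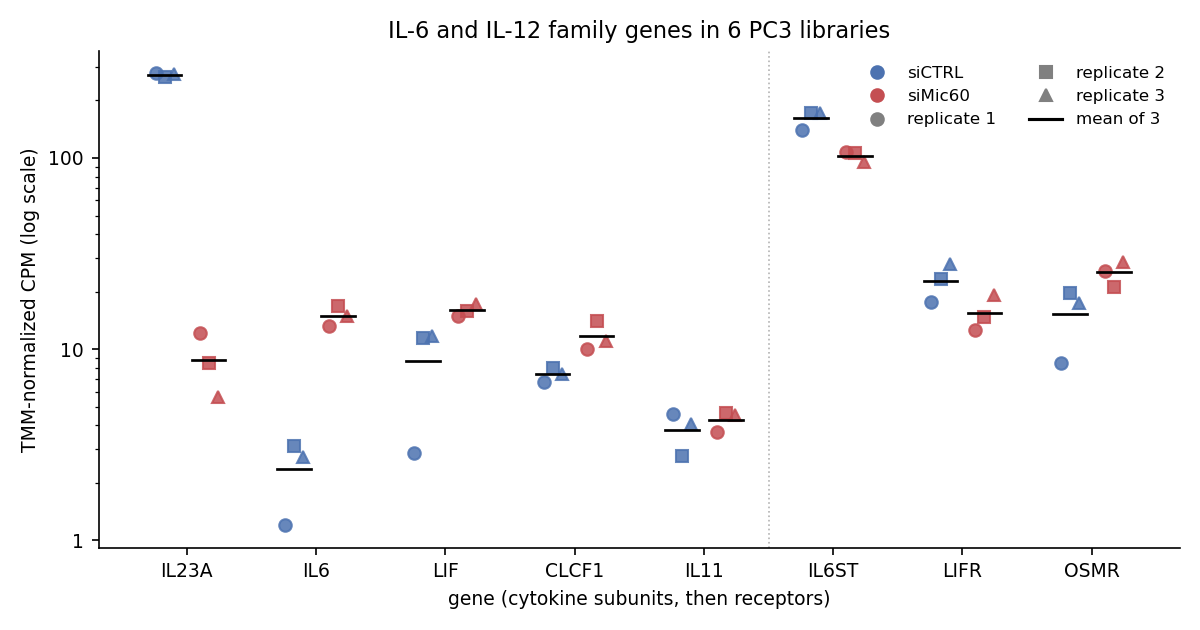
TMM-normalized CPM (log scale) of the 8 family members that passed the filter, with 1 point per library (blue siCTRL, red siMic60, marker shape for the replicate) and a line at each mean of 3. IL23A falls from a mean of 272.6 to 8.74 CPM and IL6 rises from 2.35 to 15.0 CPM, and the siCTRL replicate 1 points of LIF (2.88 CPM) and OSMR (8.51 CPM) lie under the other siCTRL points.

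IL23A (ENSG00000110944), the p19 subunit that gives IL-23 its identity, was the member with the highest level in control cells and the one that fell the most. It was at 277, 265 and 275 CPM in the siCTRL libraries and at 12.1, 8.44 and 5.65 CPM in the siMic60 libraries. The groups lay far apart, with a mean of 272.6 ± 6.38 CPM against 8.74 ± 3.24 CPM (SD, n = 3 each). The raw counts behind these levels were 2313, 2121 and 2232 in siCTRL and 79, 69 and 49 in siMic60 libraries. The log2 fold change was −4.99 (standard error 0.20), a 31.7-fold fall (95% interval 23.6 to 42.7), which left 3.15% of the control level. In these bulk samples, fewer cells with the transcript and less transcript per cell cannot be told apart.

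By the size of the fitted fall, IL23A ranked 9 of 14653 genes, ahead of IMMT, the target of the siRNA, whose log2 fold change was −3.62 (standard error 0.15). The 8 genes with a larger fitted fall had control means of 1.68 to 12.7 CPM, all of them far below IL23A. Without siCTRL replicate 1 the fall of IL23A was 31.6-fold. A single Mic60-directed siRNA group was sequenced, so an effect of Mic60 loss and an effect of that siRNA on another transcript cannot be told apart. IL23A lies between PAN2 and STAT2, both on the opposite strand, in GENCODE release 29. PAN2, a subunit of a poly(A)-removing nuclease, had 23 to 42 counts in siCTRL and 20 to 40 in siMic60 libraries, while STAT2, a transducer of interferon signals, had 485 to 687 and 1406 to 2353 counts and so differed in the opposite direction to IL23A. Neither flanking gene was called lower.

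**Figure D2:**
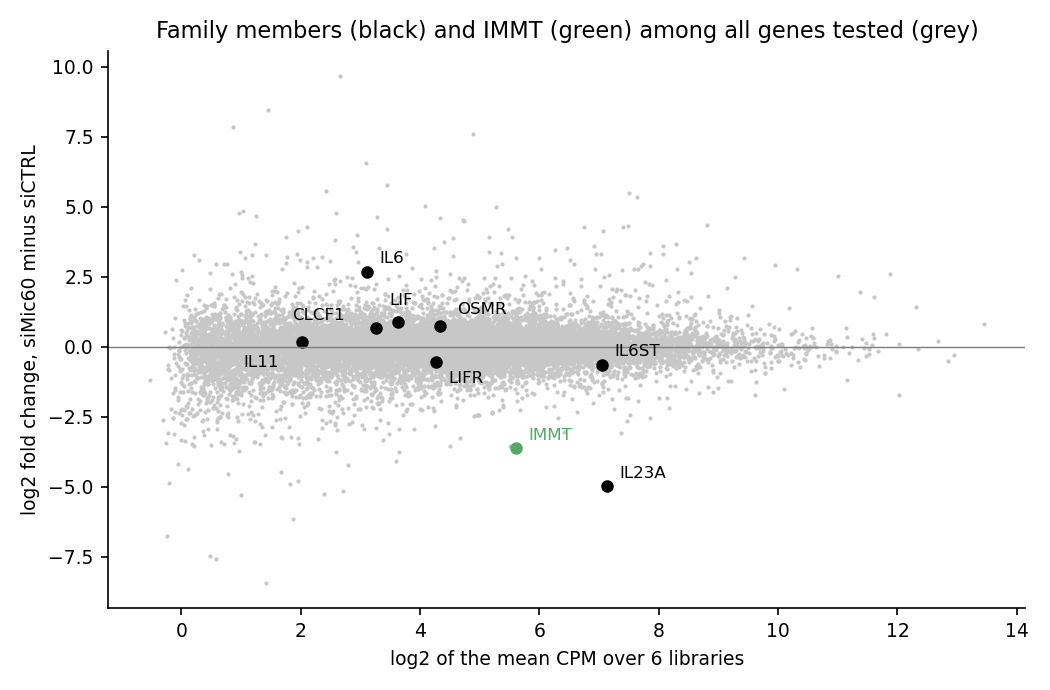
Log2 fold change (siMic60 minus siCTRL) against the log2 of the mean CPM over 6 libraries for each of the 14653 genes tested (grey), with the 8 tested family members in black and IMMT in green. IL23A lies at −4.99, below IMMT at −3.62, and IL6 at 2.68, while the other members lie within 1 of the zero line.

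The genes that IL23A needs as partners were near or at the limit of detection. IL12B, which encodes the p40 subunit of IL-23 and IL-12, had no count in any of the 6 libraries, which allows up to 0.0626 CPM over all of them (3 counts, for counting error only). IL12RB2 also had no count. IL23R, the receptor chain particular to IL-23, had 4 counts in siCTRL and 5 in siMic60 libraries together, and IL12RB1, shared by the IL-12 and IL-23 receptors, had 2 and 1. IL23A mRNA was thus abundant in control cells in which p40 mRNA was not detectable at this depth.

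IL12A (ENSG00000168811), the p35 subunit of IL-12, had 2, 4 and 6 counts in siCTRL and 7, 3 and 5 counts in siMic60 libraries. The ratio of siMic60 to siCTRL counts, scaled by library totals, was 1.26 (95% exact interval 0.550 to 2.95, for counting error only), so that no difference was detectable at this depth. EBI3 (ENSG00000105246), the subunit shared by IL-27 and IL-35, had 3, 5 and 0 counts in siCTRL and 0, 2 and 0 in siMic60 libraries. Its ratio was 0.252 (95% exact interval 0.0260 to 1.26, for counting error only). IL27, its partner in IL-27, had 1 count, in siMic60 replicate 2. IL27RA, the receptor chain that binds IL-27, was well expressed and fell from 38.0, 37.9 and 31.9 CPM in siCTRL to 14.6, 23.9 and 15.9 CPM in siMic60 libraries (1.98-fold, adjusted p = 6.59e-04).

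IL6 (ENSG00000136244), the founding member of its family and a central factor of the senescence-associated secretory phenotype, was low in control cells and higher in every siMic60 library. It was at 1.2, 3.13 and 2.71 CPM in siCTRL and at 13.2, 16.9 and 14.9 CPM in siMic60 libraries. The counts were 10, 25 and 22 against 86, 138 and 129. The log2 fold change was 2.68 (standard error 0.29), or 6.39-fold (95% interval 4.17 to 9.78), and it ranked 98 of 14653 by the size of the rise. The lowest siCTRL value was that of replicate 1, and without it the rise was 5.11-fold. IL6-AS1, which overlaps IL6 on the opposite strand, had 8, 21 and 12 counts in siCTRL and 6, 17 and 4 counts in siMic60 libraries and so did not move with IL6.

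LIF (ENSG00000128342), which keeps stem cells undifferentiated and acts through LIFR and gp130, was at 2.88, 11.4 and 11.7 CPM in siCTRL and at 14.9, 15.9 and 17.3 CPM in siMic60 libraries. The groups did not overlap, but siCTRL replicate 1 lay well under the others. The log2 fold change was 0.89 (standard error 0.34), or 1.86-fold (95% interval 1.13 to 3.05). Without siCTRL replicate 1 it was 1.39-fold and no longer called, and LIF lost its call under 7 of 13 alternative fits.

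CLCF1 (ENSG00000175505), a cytokine for neurons and B cells, was at 6.71, 8.0 and 7.40 CPM in siCTRL and at 9.97, 14.1 and 11.1 CPM in siMic60 libraries, again without overlap. It was 1.59-fold higher (95% interval 1.16 to 2.18; log2 fold change 0.67, standard error 0.21). The call was lost when siCTRL replicate 1 (then 1.52-fold), siCTRL replicate 3 or siMic60 replicate 2 was left out. RAD9A, a DNA damage gene that overlaps CLCF1 on the opposite strand, had a log2 fold change of 0.46 (standard error 0.14), and whether reads were assigned by strand is not given, so its part in the CLCF1 value was not tested.

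IL11 (ENSG00000095752), a cytokine of fibrosis and bone turnover, was at 4.55, 2.75 and 4.07 CPM in siCTRL and at 3.68, 4.65 and 4.5 CPM in siMic60 libraries. The groups overlapped, and the ratio was 1.13 (95% interval 0.724 to 1.76), which leaves room for a moderate change in either direction. CTF1, the gene of cardiotrophin-1, had means of 3.85 ± 0.52 (siCTRL) and 4.14 ± 1.99 CPM (siMic60; SD, n = 3 each) and did not pass the test (adjusted p = 0.815). OSM, CNTF and IL31, the other ligands of these receptors that were listed, had no count in any library.

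The make-up of the cytokine transcripts differed between the groups. IL23A supplied 94.6%, 91.0% and 91.2% of the counts of the 7 cytokine genes in siCTRL libraries and 22.1%, 13.9% and 10.5% in siMic60 libraries, the widest exact 95% interval of these shares being 17.9% to 26.7% in siMic60 replicate 1. These intervals cover counting error only, since reads copied by PCR are not independent molecules, and each siMic60 share lay outside the intervals of the other siMic60 libraries. The other 6 genes summed to 15.9, 26.4 and 26.6 CPM in siCTRL and to 42.8, 52.1 and 48.3 CPM in siMic60 libraries, with the lowest sum in siCTRL replicate 1. IL6, LIF and CLCF1 made up this difference, while IL11 was not called and IL12A and EBI3 were too low to be tested. The sum over all 7 genes still fell, from between 2332 and 2448 counts to between 358 and 495 counts a library. The kit reads 1 tag near the 3′ end of each transcript, so these sums follow transcript numbers more closely than full-length coverage would, although capture can differ between genes.

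**Figure D3:**
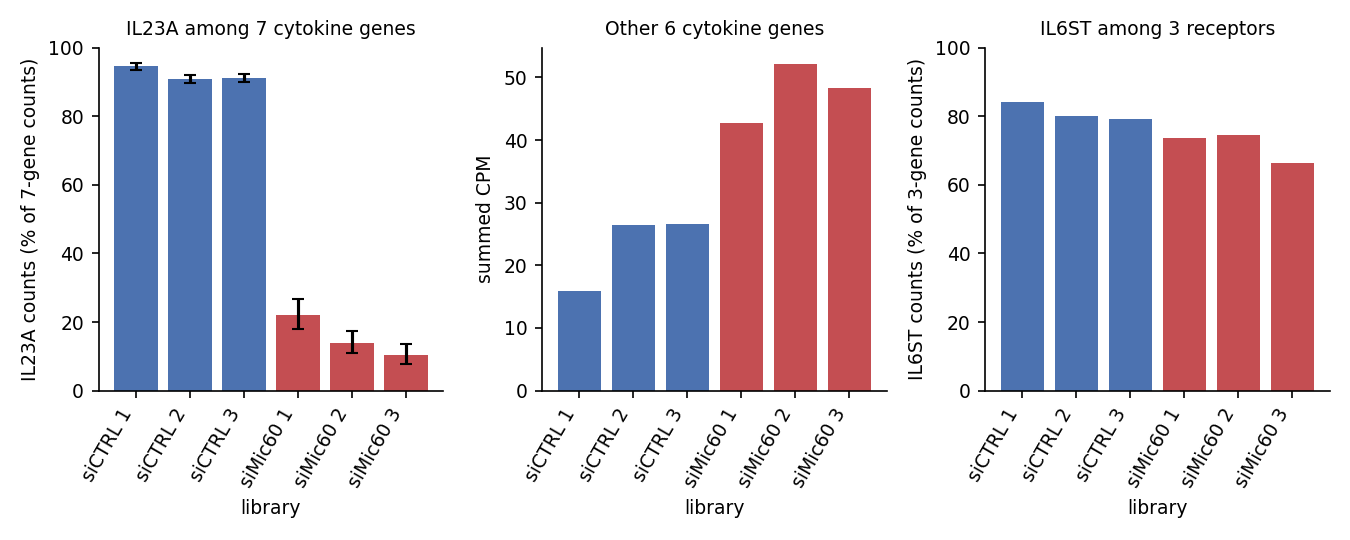
Bars, 1 per library (blue siCTRL, red siMic60), show IL23A counts as a percentage of the counts of the 7 cytokine genes (left; error bars are exact 95% binomial intervals, for counting error only), the summed CPM of the other 6 (middle) and IL6ST counts as a percentage of the 3 receptor genes (right). The IL23A share falls from over 90% to between 10.5% and 22.1%, and the sum of the other 6 rises to between 42.8 and 52.1 CPM.

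IL6ST (ENSG00000134352), the shared gp130 chain, was the most abundant of the receptor genes and fell. Its level was 140, 171 and 172 CPM in siCTRL and 108, 106 and 95.1 CPM in siMic60 libraries. Every siMic60 value was under every siCTRL value. The log2 fold change was −0.65 (standard error 0.12), a 1.57-fold fall (95% interval 1.31 to 1.88), and IL6ST kept its call in each of the 13 alternative fits. IL6ST-DT, a divergent noncoding gene next to it, had 42 to 58 counts in siCTRL and 23 to 37 in siMic60 libraries (a log2 difference of −0.57, adjusted p = 0.158).

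LIFR (ENSG00000113594), the chain that pairs with gp130 for LIF and CLCF1, was at 17.6, 23.1 and 27.7 CPM in siCTRL and at 12.6, 14.7 and 19.3 CPM in siMic60 libraries. The groups overlapped, since siMic60 replicate 3 lay above siCTRL replicate 1. The fitted fall was 1.46-fold (95% interval 1.09 to 1.97; log2 fold change −0.55, standard error 0.20), and its call was lost without siCTRL replicate 2 or 3 and without siMic60 replicate 1 or 2. LIFR-AS1, an antisense gene that overlaps it, was lower as well, at 12 to 19 counts against 3 to 7 (a log2 difference of −1.63, adjusted p = 0.0178), and its part in the LIFR value was not tested.

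OSMR (ENSG00000145623), the chain that pairs with gp130 for oncostatin M and with IL31RA for IL-31, moved opposite to LIFR. It was at 8.51, 19.6 and 17.5 CPM in siCTRL and at 25.8, 21.2 and 28.7 CPM in siMic60 libraries, without overlap, although siMic60 replicate 2 lay just above siCTRL replicate 2. The rise was 1.66-fold (95% interval 1.16 to 2.37; log2 fold change 0.73, standard error 0.24). Without siCTRL replicate 1 it was 1.36-fold and not called, and the call was also lost without siMic60 replicate 1, without siMic60 replicate 3 and with scaling by library totals. RICTOR, an mTOR complex gene that overlaps OSMR on the opposite strand, had 352 to 389 counts in siCTRL and 418 to 578 in siMic60 libraries (log2 fold change 0.41, standard error 0.13), and its part in the OSMR value was not tested.

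The ratio of the gp130 partner chains restates the LIFR and OSMR values by library. There were 2.07, 1.18 and 1.58 LIFR counts for each OSMR count in siCTRL libraries and 0.488, 0.694 and 0.671 in siMic60 libraries. IL6ST supplied 84.3%, 80.0% and 79.2% of the counts of the 3 receptor genes in siCTRL and 73.8%, 74.7% and 66.5% in siMic60 libraries. Both ratios are built from genes chosen on this contrast and are given as a description.

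Among ligand-binding chains outside the 10 genes, IL6R, which binds IL-6 and presents it to gp130, was 1.39-fold higher (95% interval 1.08 to 1.79; adjusted p = 0.0397), at 13.5, 11.9 and 15.3 CPM in siCTRL and 16.9, 20.1 and 19.7 CPM in siMic60 libraries. Its call was lost under 7 of the 13 alternative fits, among them those without siCTRL replicate 1 (edgeR adjusted p = 0.0640) or 2 and without siMic60 replicate 2 or 3. IL11RA, the chain for IL-11, was at 17.2 ± 2.13 CPM without and 13.9 ± 1.51 CPM with silencing (SD, n = 3 each; adjusted p = 0.190). IL31RA was at 1.84 ± 0.46 and 1.24 ± 0.025 CPM (adjusted p = 0.318). CNTFR had 2 counts, both in siCTRL libraries. Of the 15 partner and receptor genes listed, 6 were tested, of which 1 was higher (IL6R) and 2 were lower (IL27RA among them).

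**Figure D4:**
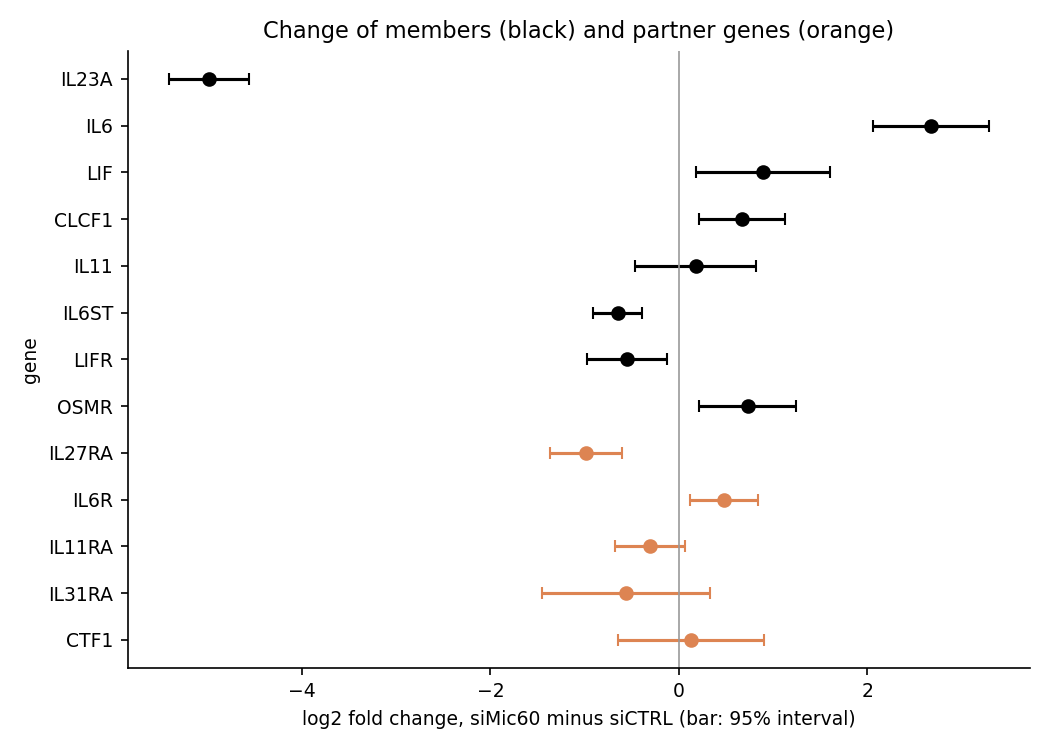
Log2 fold change (siMic60 minus siCTRL, n = 3 libraries each) with its 95% interval for the 8 tested members (black) and 5 tested partner and receptor genes (orange). IL23A at −4.99 and IL6 at 2.68 stand far from zero, and the intervals of IL11, IL11RA, IL31RA and CTF1 cross it.

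In control cells the members were ordered IL23A, IL6ST, LIFR, OSMR, LIF, CLCF1, IL11 and IL6 by mean CPM, which counts tags and is not divided by transcript length. The ranges of LIFR and OSMR across libraries overlapped, as did those of OSMR and LIF, of LIF and CLCF1, and of IL11 and IL6. Within each siCTRL library, however, LIFR was above OSMR and OSMR above LIF. The order of LIF and CLCF1, and that of IL11 and IL6, differed between siCTRL libraries. In siMic60 cells IL6ST came first at 103 CPM and OSMR next at 25.2 CPM, followed by LIF at 16.0, LIFR at 15.5, IL6 at 15.0, CLCF1 at 11.7, IL23A at 8.74 and IL11 at 4.28 CPM. The ranges of LIF, LIFR and IL6 overlapped each other in that group, that of CLCF1 overlapped those of LIFR and IL6, and that of IL23A overlapped that of CLCF1. Within each siMic60 library CLCF1 was below both LIFR and IL6, while the order of the other overlapping genes differed between libraries.

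RefSeq windows were matched for 8 of the 10 members, and LIF and CLCF1 had no entry. IL12A held an NF-kB match and EBI3 and IL11 an AP-1 match, shown here in windows of 24 bases with the match in capitals, because these genes share motifs with IL23A or IL6. IL11 did not pass the test and IL12A and EBI3 were too low to be tested. The window of OSMR is shown for its C/EBP match.
IL12A: ggtgggcGGGGTGTCCCgcccgcc
EBI3: cccaccagTGAGTCAgacctgaag
IL11: agggagggTGAGTCAggatgtgtc
OSMR: acgggaaaTTGCAAAAgacctcac
IL6ST held none of the 8 motifs in its window. NF-kB matches were thus found for 3 of the 8 members, IL23A, IL6 and IL12A, which fell, rose and were too low to test, and the C/EBP-ATF element (TGATGNAA, 3.14% of windows) for 0 of the 8. LIFR had 3 start sites in the table, of which the second and the third held a GAS motif (TTCNNNGAA, 6.57% of windows), the element that STAT dimers bind. The second also held a C/EBP match, as IL6 and OSMR did, and TATAAA on both strands, as IL23A did on the plus strand.

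The rest of the pathway was measured in 7 lists of 96 genes in all, drawn up with earlier results of these data known. Of the 96, 74 were tested, and 20 were higher and 14 lower, or 45.9% called against 35.5% of all genes tested. Their median log2 fold change was 0.081. By list, the share called was 50% for partner and receptor genes, 44.4% for JAK-STAT signalling, 37.5% for feedback inhibitors and 50% for STAT3 targets. It was 53.8% for transcription factors, 38.5% for RNA-binding proteins and 40% for receptor shedding. With so few genes in a list, nothing is read from these shares.

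Among 9 tested genes of JAK-STAT signalling, 2 were higher and 2 lower. STAT3, the main STAT of gp130 and one that PC3 is known to lack as a protein, was at 8.03, 8.13 and 5.05 CPM in siCTRL and 8.13, 7.71 and 5.19 CPM in siMic60 libraries (ratio 0.985, 95% interval 0.664 to 1.46, adjusted p = 0.960). JAK1, the main kinase on gp130, was at 83.7 ± 0.51 and 94.3 ± 6.85 CPM (SD, n = 3 each; adjusted p = 0.265), and neither JAK2 (adjusted p = 0.323) nor TYK2 (adjusted p = 0.312), the kinases of the IL-23 receptor, passed the test. GAB1, a scaffold recruited to gp130, fell 2.29-fold (adjusted p = 0.00251) and the phosphatase PTPN11 (SHP2) 1.3-fold (adjusted p = 0.0263), while the adaptor GRB2 rose 1.3-fold (adjusted p = 0.0299). GRB2 lost its call in 4 of 13 alternative fits, with library totals and without siCTRL replicate 1 (adjusted p = 0.0850), siCTRL replicate 2 or siMic60 replicate 1. PTPN11 also lost its call in 4, those without siCTRL replicate 2 or 3 and without siMic60 replicate 2 or 3.

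Of 8 feedback inhibitors, all tested, 1 was higher and 2 were lower. SOCS3, which binds gp130 and shuts off JAKs, rose from 60.05, 67.9 and 71.3 CPM to 93.5, 125 and 117 CPM (1.69-fold, adjusted p = 5.22e-04). PIAS3, an inhibitor of STAT3, fell from 64.7, 53.4 and 57.8 CPM to 20.7, 21.2 and 23.6 CPM (2.68-fold, adjusted p = 1.58e-06). The phosphatase PTPN6 (SHP1) fell 2.02-fold from 6.08 ± 1.19 CPM (SD, n = 3; edgeR adjusted p = 0.0148), and its call was lost without siCTRL replicate 1 (adjusted p = 0.0691).

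Genes known as STAT3 targets moved in both directions, with 5 higher, 5 lower and 10 not past the test among 20 tested. Of all genes tested, 17.7% were higher and 17.9% lower. MYC rose 3.57-fold (adjusted p = 3.01e-04), from 3.24, 11.0 and 12.8 CPM to 29.6, 30.5 and 36.3 CPM, with siCTRL replicate 1 again the lowest, and 2.70-fold without that library. CCND1 (cyclin D1) fell 1.77-fold (adjusted p = 1.06e-04), MCL1, a survival factor, 1.52-fold (adjusted p = 4.70e-04) and NNMT, a nicotinamide methyltransferase, 2.21-fold (adjusted p = 3.61e-04). Of the acute phase genes, CRP, FGA, FGG, HP and SERPINA3 had no count in any library. Others on the list were detected at low level. SAA1 (serum amyloid A) had 8, 13 and 5 counts in siCTRL and 16, 21 and 5 in siMic60 libraries and did not pass the test (adjusted p = 0.310), SAA2 had 12 and 19 counts by group, FGB 0 and 4, and LBP 2 and 0.

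**Figure D5:**
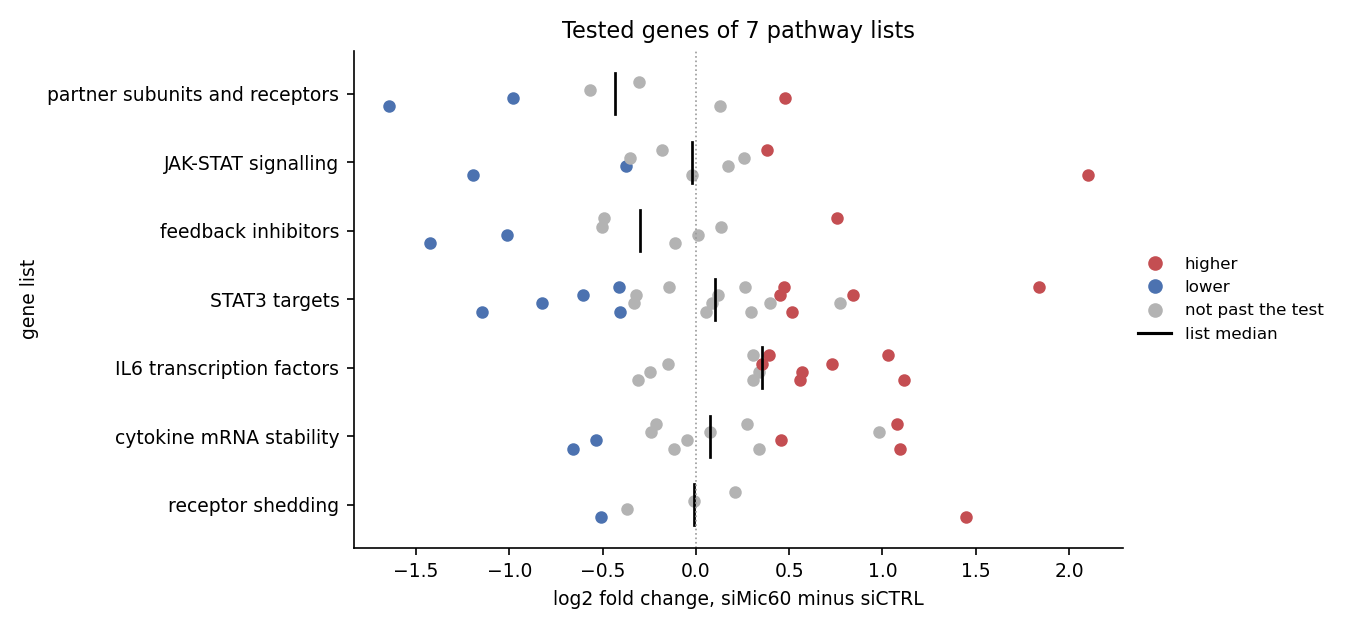
Log2 fold change (siMic60 minus siCTRL) of each tested gene in 7 pathway lists, coloured by the edgeR call (red higher, blue lower, grey not past the test), with a black bar at each list's median. Of the 13 factors known to act on these cytokine promoters, 7 are higher and 0 lower, while STAT3 targets hold 5 higher and 5 lower genes.

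Among 13 tested transcription factors known to act on the IL6, LIF or IL23A promoters, 7 were higher and 0 lower (17.7% and 17.9% of all genes tested), with a median log2 fold change of 0.36. ATF3, a stress-induced factor, rose 2.16-fold (adjusted p = 4.67e-05), ATF4, the effector of the integrated stress response, 2.05-fold (adjusted p = 6.48e-05), and FOSL1, an AP-1 subunit, 1.66-fold (adjusted p = 1.23e-04). RELA, the transactivating NF-kB subunit, rose 1.47-fold (adjusted p = 0.00319), and NFKBIZ, an NF-kB cofactor needed for IL6 induction in many cells, 1.48-fold (adjusted p = 0.0183), with overlap between its libraries and a call that was lost without siCTRL replicate 2 and without siMic60 replicate 1 or 3. The count of 7 became 4 when siCTRL replicate 2, siMic60 replicate 1 or siMic60 replicate 3 was left out, and 1 gene was then called lower without siMic60 replicate 1.

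Of 13 tested RNA-binding proteins that set the half-life of cytokine transcripts, 3 were higher and 2 lower. ZFP36L1 and ZFP36L2, which bind AU-rich elements and speed decay, rose 2.14-fold (adjusted p = 5.61e-06) and 2.11-fold (adjusted p = 6.22e-05). RC3H2 (Roquin-2) fell 1.58-fold (adjusted p = 8.24e-04) and CPEB4, a poly(A) regulator, 1.45-fold (adjusted p = 0.00441). ZC3H12A (Regnase-1), the endonuclease that cleaves IL6 transcripts, was at 21.8 ± 6.0 CPM without and 18.8 ± 1.68 CPM with silencing (SD, n = 3 each; adjusted p = 0.418). Of 5 genes of receptor shedding, ERAP1, a peptidase that also trims antigens, rose 2.73-fold (adjusted p = 5.57e-06), RHBDF2, a carrier of ADAM17, fell 1.43-fold (adjusted p = 0.0101; call lost without siMic60 replicate 1), and ADAM10, ADAM17 and RHBDF1 did not pass.

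The genes most like IL23A and IL6 over the 6 libraries were found from the root mean square difference of log2 CPM, each gene centred on its own mean. For IL23A they were the small nucleolar RNA gene SNORA79B (0.64), SYT11 (0.69), a synaptotagmin of vesicle traffic, and the small Cajal body RNA gene SCARNA13 (0.77), none of them close on this scale. SYT11 went from 23.0 to 1.35 CPM, well under the level of IL23A. For IL6 they were CASP1 (0.14), the inflammasome protease, TAB2 (0.16), an adaptor in NF-kB activation, and TXN (0.20), thioredoxin. CASP1, TAB2 and TXN were lowest in siCTRL replicate 1, as was IL6, and had log2 fold changes of 2.86, 2.35 and 2.06. Both traits follow from picking genes by their likeness to IL6. CASP1 was low in control cells, with means of 1.03 CPM in siCTRL and 7.54 CPM in siMic60 libraries.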

How the data were processed

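RNA from 6 PC3 samples was sequenced from QuantSeq 3′ mRNA libraries, and the authors deposited whole-number counts per Ensembl gene without normalization. Tools and builds listed in the submitters' processing notes, without roles, are DESeq2, hg19, GRCh37 and RSEM 1.2.3, so the counts can be rounded estimates. The strand setting, aligner and annotation were not given in the sources used here, and overlapping or antisense genes are uncertain. Symbols were matched to 39994 of 57736 identifiers.

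The main test was the quasi-likelihood test of edgeR 4.0.16 (R 4.3.3) with TMM scaling and Benjamini-Hochberg adjustment at 0.05, over 14653 genes that reached 10 counts in 3 or more libraries. Over a group, 3 counts equal 0.125 CPM (siCTRL) and 0.126 CPM (siMic60). The fit was tested on simulated data in which no library was set apart from its group. That test does not cover calls that are lost when a single library is left out. Alternatives were DESeq2 1.42.0, limma 3.58.1 (limma-trend, prior count 2), other scalings, other count minimums (0 and 50), leaving out single libraries, and blocking on the replicate number. Likeness used a prior of 0.5 CPM. The members, lists and tests were chosen with earlier results of these data known. The genes named are the members, their partners, IMMT, a few core factors chosen by name, the 4 called genes with the smallest adjusted p in each list, the 3 genes most like IL23A and IL6, and the neighbours and marker genes, which were named after their values were seen. Some genes that this rule names are not reported here.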

Additional observations from a re-analysis of the deposited data

How the results depend on the processing

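IMMT, IL23A, IL6 and IL6ST kept their direction and their call in each of 13 alternative fits, IL23A with a log2 fold change of −5.27 to −4.74, IL6 of 2.35 to 2.93 and IL6ST of −0.74 to −0.59. The 4 members called higher became 2 with library totals as the scaling, which drops LIF and OSMR and moves the median of all genes to −0.055, and 1 to 4 when a library was left out (IL6 alone without siCTRL replicate 1). The 3 called lower became 2 to 3 when a library was left out. Of the related genes, 13 to 19 were higher and 11 to 16 lower without 1 library, against 20 and 14 with all 6, and the 13 came without siCTRL replicate 2. IL6R lost its call in 7 fits (adjusted p = 0.0579 to 0.163), PTPN11 in 4 (0.0666 to 0.108), GRB2 in 4 (0.0587 to 0.0927), NFKBIZ in 3 (0.0562 to 0.100), PTPN6 without siCTRL replicate 1 (adjusted p = 0.0691) and RHBDF2 without siMic60 replicate 1 (adjusted p = 0.0523), all from edgeR or DESeq2, and the cause was not tested. No called value changed sign. Of values that were not called, IL11 (−0.014 to 0.33 on the log2 scale), CTF1, STAT3 and ZC3H12A changed sign in some fits. No pairing by replicate number was visible. Deviations of same-numbered libraries correlated at −0.12 to 0.024 across genes, and 1 of 6 libraries correlated best with its own number. These correlations cannot show whether same-numbered libraries were made together, which the labels do not state. With the replicate block, 4766 genes were called against 5204, the related genes called higher were 18, and the members called stayed at 4 higher and 3 lower. At this depth IL12A, EBI3, IL12B and the IL-23 receptor genes could not be compared.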
